A study of Mus musculus with 4 samples.

Results

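The IL-17 family was followed in the dorsal lesions of mice on Day 1 of imiquimod (IMQ) treatment, as measured by RNA sequence analysis. The members were chosen by gene symbol, with earlier results of these data known. They comprise 6 cytokine genes (*Il17a*, *Il17b*, *Il17c*, *Il17d*, *Il17f* and *Il25*) and 4 genes of receptor chains (*Il17ra*, *Il17rb*, *Il17rc* and *Il17re*), and all 10 were found among the 24346 gene symbols listed for each library. The comparison asked how a dietary oxysterol, 7-ketocholesterol (7KC), was related to the expression of this family in inflamed skin. Male C57BL/6 mice were 8 weeks old when feeding began. The Cont-IMQ group (2 libraries) received the nonalcoholic steatohepatitis (NASH) diet, which is rich in fat, cholesterol and sucrose and contains bile salt, for 3 weeks, after which IMQ cream was applied for 1 day. The 7KC-IMQ group (2 libraries) received the same diet with added 7KC for the same time, followed by the same cream. In the values below, "without 7KC" stands for Cont-IMQ replicates 1 and 2 and "with 7KC" for 7KC-IMQ replicates 1 and 2, in that order. All 4 libraries came from mice that shared the NASH diet and IMQ, and untreated skin, vehicle-treated skin and normal chow are not part of the comparison. The sources do not say whether a library held the RNA of 1 mouse, so the p-values measure the spread between these libraries, which may be partly technical.

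The cytokines of this family are secreted as dimers. IL-17A, IL-17F, IL-17C and IL-25 are read by receptors built from a shared chain, IL-17RA, and a partner chain. The partner chain sets which ligand is bound. IL-17A and IL-17F, made by T helper 17 cells, gamma delta T cells and innate lymphoid cells, signal through IL-17RA with IL-17RC. IL-17C, which epithelial cells make themselves, signals through IL-17RA with IL-17RE, and IL-25 (also called IL-17E) through IL-17RA with IL-17RB, a chain that also binds IL-17B. In psoriatic skin, IL-17A and IL-17F act on keratinocytes, which answer with antimicrobial proteins and chemokines that draw in neutrophils.

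*Il17a* (ENSMUSG00000025929.4) lies on chromosome 1 of GRCm38, the assembly also called mm10, from 20730905 to 20734496. *Il17f* (ENSMUSG00000041872.9) lies on the same chromosome from 20777146 to 20790617 on the opposite strand, with 42649 bases between the genes. *Il17c* (ENSMUSG00000046108.3) lies on chromosome 8 from 122422020 to 122423639. *Il17re* and *Il17rc* are neighbors on chromosome 6, where they stand head to tail on the same strand with 668 bases between them. These 3 cytokines had the largest differences between the groups, and the 250 bases upstream of their RefSeq start sites (GRCm38.p6) are shown because *Il17a* and *Il17f*, which are neighbors, were both higher with 7KC. The RefSeq start of *Il17f* lies inside the span given above, which includes a longer annotated transcript. Capitals mark letters that match the AP-1 motif (TGANTCA) or the TATA box (TATAAA), on either strand. The first is chr1:20730655-20730904 on the plus strand, the second chr1:20784271-20784520 on the minus strand, and the third chr8:122421770-122422019 on the plus strand.
Il17a: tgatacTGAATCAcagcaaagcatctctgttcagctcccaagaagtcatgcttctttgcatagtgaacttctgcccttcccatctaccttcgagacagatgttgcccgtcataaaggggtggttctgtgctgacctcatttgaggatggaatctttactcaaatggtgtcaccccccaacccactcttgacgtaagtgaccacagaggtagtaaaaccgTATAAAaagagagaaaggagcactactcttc
Il17f: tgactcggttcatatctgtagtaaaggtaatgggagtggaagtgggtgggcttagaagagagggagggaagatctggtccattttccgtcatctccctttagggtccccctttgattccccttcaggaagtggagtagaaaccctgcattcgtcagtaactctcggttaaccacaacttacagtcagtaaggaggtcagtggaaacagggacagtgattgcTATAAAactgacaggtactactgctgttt
Il17c: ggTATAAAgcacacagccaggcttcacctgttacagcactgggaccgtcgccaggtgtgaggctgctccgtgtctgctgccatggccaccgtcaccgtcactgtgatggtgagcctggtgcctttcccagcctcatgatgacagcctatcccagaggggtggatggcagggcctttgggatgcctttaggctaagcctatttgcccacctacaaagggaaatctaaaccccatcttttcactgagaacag

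Both *Il17a* and *Il17f* held the TATA box close to the start site, from 31 to 26 bases before it in *Il17a* and from 29 to 24 bases before it in *Il17f*, whereas the match in *Il17c* lay 248 to 243 bases before the start. The AP-1 motif matched once in *Il17a*, 244 to 238 bases before the start, and not in the windows of *Il17f* and *Il17c*. Of the 32851 promoter windows of this length in the table, 12.4% held the TATA box letters and 6.75% the AP-1 motif. The same windows were searched for the NFAT core (GGAAA), found in 55.6% of all windows, for the STAT motif (TTCNNNGAA), found in 7.02%, and for the NF-kB motif, found in 3.9%. The NFAT core, whose letters are not capitalized and can overlap other matches, occurred at most 2 times in any window shown and not in that of *Il17a*, and the STAT and NF-kB letters occurred in none of them. Windows of 7 members were found, and outside the 3 printed the TATA box occurred in none of the other 4 (*Il17d*, *Il17rb*, *Il17rc* and *Il17re*). A further motif planned with these is not reported here, so the windows may hold matches that are neither marked nor counted. A match of letters is a description and does not show that a factor binds there.

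Expression was deposited as FPKM, a read density scaled to the exon length of the gene and to the mapped reads of the library, so that levels of genes of different lengths can be set side by side. Depth was not given, and from the steps of 1 read in the low values the number of mapped reads was estimated at 15220000 and 15130000 without 7KC and at 16190000 and 14990000 with 7KC. The groups were compared on log2(FPKM + 1) by limma in the 15896 genes that averaged at least 0.1 FPKM, which all 10 members reached. Because of the added 1, differences of genes with low FPKM come out too small on this scale. After Benjamini-Hochberg adjustment, 1 gene, *Mir24-2*, passed the threshold of 0.05, which is 0.00629% of the genes tested, and 0 of the 10 members passed. Their adjusted p-values in limma ranged from 0.265 to 0.868. As a check of the tissue, the keratinocyte gene *Krt14* had 4132 to 5700 FPKM in the 4 libraries. The samples were not epidermis alone, since the skeletal muscle gene *Acta1* had 2106 to 3133 FPKM. The libraries also differed in genes of growing hair follicles (16 genes listed), whose summed FPKM was 133 and 1659 in Cont-IMQ replicates 1 and 2 against 494 and 435 in the 7KC-IMQ replicates.

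The cytokines and the receptor chains differed in how far the groups were apart. With an unadjusted limma p-value under 0.05, 4 of the 6 cytokines (*Il17a*, *Il17f*, *Il17c* and *Il17b*) were higher with 7KC, as were 0 of the 4 receptor chains. None of the 10 was lower at that level with all libraries, but without Cont-IMQ replicate 2 *Il17rb* was, and 3 members were higher with any 1 library left out. Among all genes tested, 7.50% were higher and 5.47% lower by the same measure. Without overlap between the groups, 5 of the 6 cytokines and 2 of the 4 receptor chains were higher and none of the 10 was lower, where 23.9% of all genes tested were higher and 22.9% lower in this way. The median log2 fold change was 0.64 over the cytokines, 0.13 over the receptor chains and -0.006 over all genes tested. With 2 libraries in each group, the smallest two-sided p-value of the exact permutation test is 0.333.

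**Figure D1:**
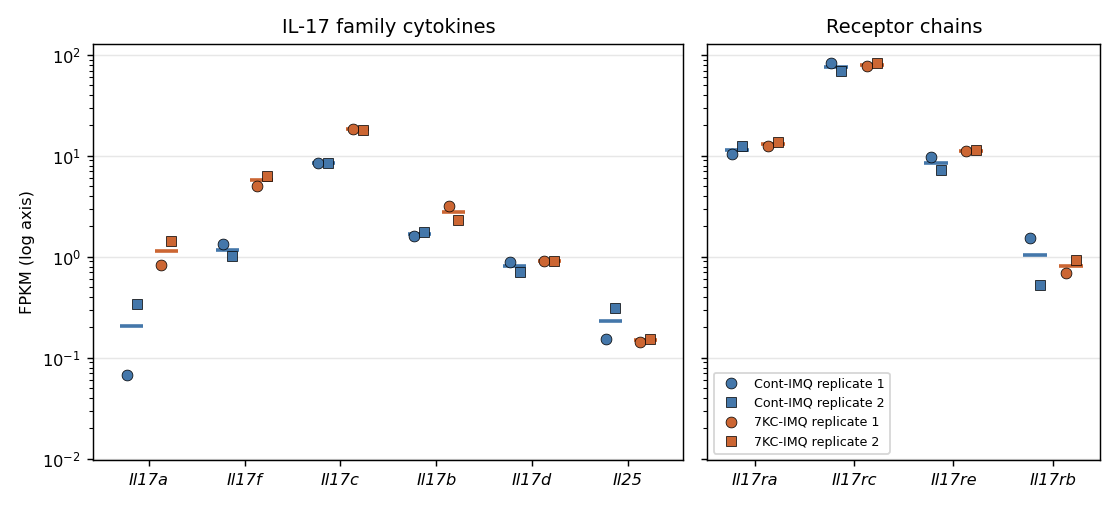
FPKM of each member on a log axis in the 4 libraries, with circles for replicate 1, squares for replicate 2 and a line at each group's mean. *Il17a*, *Il17f*, *Il17c* and *Il17b* stood higher in both 7KC-IMQ libraries, whereas *Il17rc* lay between 68.5 and 83.3 FPKM in all 4 and *Il17rb* was spread from 0.530 to 1.54 FPKM within the Cont-IMQ group.

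*Il17c* was the most abundant cytokine of the family in every library. It had 8.53 and 8.47 FPKM without 7KC, and 18.4 and 18.2 FPKM with 7KC. The replicates of each group were almost equal and the groups were far apart, at 8.50 ± 0.0434 against 18.3 ± 0.157 FPKM (SD, n = 2). The mean was 2.15-fold higher, and the log2 fold change of *Il17c* was 1.02 (standard error 0.080, limma adjusted p = 0.265). Its estimated reads were 67, 66, 155 and 141 in the same order of libraries, and the ratio of reads per mapped read was 2.17 with an exact 95% interval of 1.76 to 2.68. Intervals of this kind cover counting error only. Leaving out each library in turn moved the log2 fold change only between 1.02 and 1.03.

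*Il17f* had the largest log2 fold change of the 10 members on the log2(FPKM + 1) scale, whereas the ratio of mean FPKM was larger for *Il17a* (5.53 against 4.84). It had 1.34 and 1.02 FPKM without 7KC and 5.08 and 6.33 FPKM with 7KC. The lowest 7KC-IMQ value was thus well above the highest Cont-IMQ value. The log2 fold change of *Il17f* was 1.62 (standard error 0.15, limma adjusted p = 0.284), with a mean 4.84-fold higher in FPKM. Taking its longest coding transcript, these values correspond to about 20, 15, 80 and 93 reads, a ratio of 4.81 with an exact 95% interval of 3.33 to 7.13.

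*Il17a* was the rarest cytokine beside *Il25* in the Cont-IMQ group. It had 0.0675 and 0.341 FPKM without 7KC and 0.821 and 1.44 FPKM with 7KC, from an estimated 1, 5, 13 and 21 reads. The first value rests on 1 read, where 3 reads were set as the floor, and the groups did not overlap. The ratio of reads per mapped read was 5.52 with an exact 95% interval of 2.29 to 16.1, and on the log2 scale *Il17a* was higher by 0.82 (standard error 0.20, limma adjusted p = 0.356). The difference was therefore larger in reads than on the log2(FPKM + 1) scale, where leaving out single libraries gave 0.61 to 1.03. Since these are whole skin samples, more cells that make a transcript and more transcript per cell cannot be told apart, for this gene or any other.

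*Il17b*, whose protein shares the IL-17RB chain with IL-25, was higher by a smaller amount. It had 1.62 and 1.78 FPKM without 7KC and 3.16 and 2.33 FPKM with 7KC. The 7KC-IMQ replicates differed from each other by more than the distance between the nearest values of the groups. The log2 fold change of *Il17b* was 0.46 (standard error 0.15, limma adjusted p = 0.365), and it was 0.30 to 0.62 with each library left out. About 12, 13, 25 and 17 reads lie behind the values, and the exact 95% interval of the ratio of reads, 0.974 to 2.80, includes equality. Of the exonic bases of *Il17b*, 14.5% are shared with a gene on the opposite strand.

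*Il17d*, a family member expressed in many tissues outside the immune system, showed no detectable difference between the groups. It had 0.898 and 0.713 FPKM without 7KC and 0.899 and 0.911 FPKM with 7KC. The groups did not overlap, but Cont-IMQ replicate 1 and 7KC-IMQ replicate 1 were nearly equal. The log2 fold change was 0.08, with a 95% interval from -0.21 to 0.37 in limma. *Il25* had 0.152 and 0.308 FPKM against 0.142 and 0.154 FPKM, from an estimated 2, 4, 2 and 2 reads. Of these libraries, Cont-IMQ replicate 2 alone was above the floor of 3 reads, so no difference in *Il25* could be detected at this depth, and no fold is given.

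**Figure D2:**
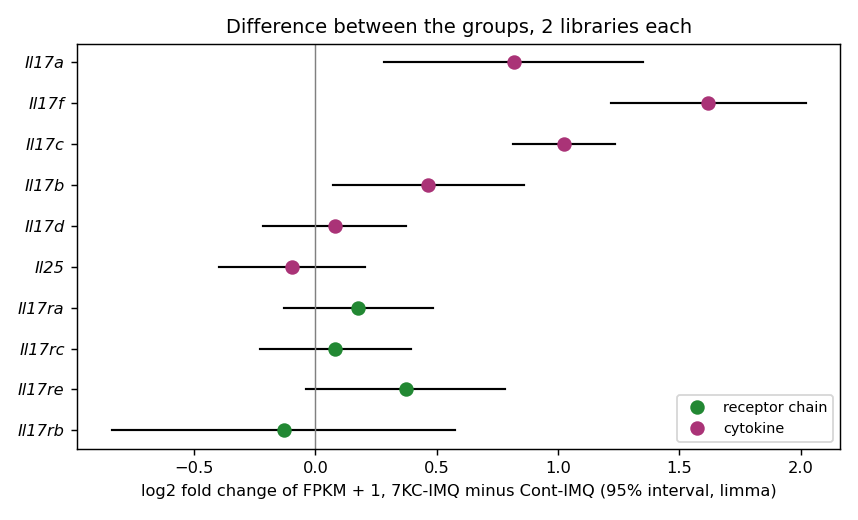
Log2 fold change of each member on the log2(FPKM + 1) scale, 7KC-IMQ minus Cont-IMQ, with its 95% interval from limma (not adjusted for the number of genes). The intervals of *Il17a*, *Il17f*, *Il17c* and *Il17b* lie above 0, and those of *Il17d*, *Il25* and the 4 receptor chains include it.

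Added together, the 6 cytokines came to 12.6 FPKM in both Cont-IMQ libraries and to 28.5 and 29.4 FPKM in the 7KC-IMQ libraries. The sum was 2.29-fold higher in the 7KC-IMQ group (two-sided exact permutation p = 0.333, the smallest possible). Its make-up differed as well. *Il17c* held 67.6% and 67.1% of the sum in the Cont-IMQ libraries and 64.6% and 62.0% in the 7KC-IMQ libraries. *Il17f* held 10.6% and 8.05% against 17.8% and 21.5%, and thereby passed *Il17b*, which held 12.9% and 14.1% against 11.1% and 7.95%. *Il17c* was 6.36 and 8.33 times as abundant as *Il17f* in the Cont-IMQ libraries but 3.63 and 2.88 times as abundant in the 7KC-IMQ libraries (exact permutation p = 0.333). The shares of *Il17d* and *Il25* were lower in both 7KC-IMQ libraries, at 3.15% and 3.10% against 7.12% and 5.65% for *Il17d*, although its own level was not. *Il17f* was 2.98 to 19.9 times as abundant as *Il17a* in the Cont-IMQ group and 6.19 and 4.40 times in the 7KC-IMQ group, where the highest of these ratios rests on the single read of *Il17a* in Cont-IMQ replicate 1.

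**Figure D3:**
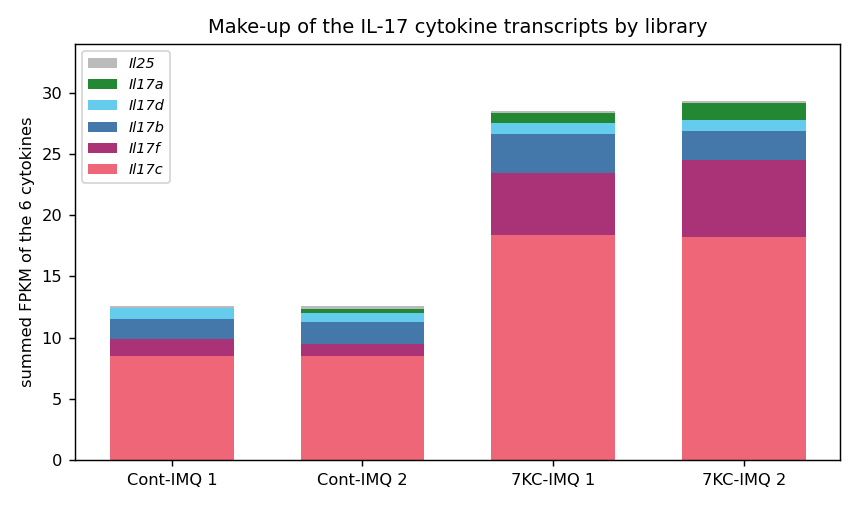
Summed FPKM of the 6 cytokine genes in each library, stacked by gene. The bars reach 12.6 in both Cont-IMQ libraries and 28.5 and 29.4 in the 7KC-IMQ libraries, with *Il17c* as the largest part of each and a larger part of *Il17f* in the 7KC-IMQ libraries.

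The 4 receptor chains together had a higher level than the 6 cytokines together in every library, and most of their level was *Il17rc*. *Il17rc*, the partner chain for IL-17A and IL-17F, was the highest of the 10 members, with 83.3 and 68.5 FPKM without 7KC and 77.0 and 83.3 FPKM with 7KC. The groups overlapped, and the difference of 0.08 on the log2(FPKM + 1) scale had a 95% interval from -0.23 to 0.40 in limma. It turned to -0.06 without Cont-IMQ replicate 2 and to -0.007 after quantile normalization. *Il17ra*, the shared chain, had 10.5 and 12.6 FPKM against 12.6 and 13.7 FPKM. Its groups did not overlap only because Cont-IMQ replicate 2 lay just under 7KC-IMQ replicate 1, and the log2 fold change of *Il17ra* was 0.18 with a 95% interval from -0.13 to 0.49. It was 0.06 without Cont-IMQ replicate 1 and 0.30 without Cont-IMQ replicate 2.

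*Il17re*, the partner chain for IL-17C, had the largest difference among the receptor chains. It had 9.80 and 7.20 FPKM without 7KC and 11.1 and 11.3 FPKM with 7KC, without overlap. The log2 fold change of *Il17re* was 0.37 (standard error 0.16, limma adjusted p = 0.416), which was 0.17 without Cont-IMQ replicate 2 and 0.57 without Cont-IMQ replicate 1. Its ligand *Il17c* was present at 0.870 and 1.18 times the FPKM of *Il17re* without 7KC and at 1.67 and 1.61 times with 7KC (exact permutation p = 0.333). *Il17rb*, the chain for IL-25 and IL-17B, was the scarcest receptor chain, with 1.54 and 0.530 FPKM against 0.687 and 0.923 FPKM. Here the Cont-IMQ replicates differed from each other more than the groups did, and the difference of -0.13 turned to 0.24 without Cont-IMQ replicate 1. Of the exonic bases of *Il17rb*, 3.8% overlap *Actr8* on the opposite strand.

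Summed over the 4 chains, the receptors had 105.1 and 88.8 FPKM without 7KC and 101.3 and 109.2 FPKM with 7KC (exact permutation p = 0.667). The cytokine sum was 12.0% and 14.2% of the receptor sum in the Cont-IMQ libraries and 28.1% and 26.9% in the 7KC-IMQ libraries. *Il17rc* made up 76.0% to 79.2% of the receptor sum in all 4 libraries and was 5.45 to 7.92 times as abundant as *Il17ra*. In the order of levels, *Il17rc* came first in both groups. In the Cont-IMQ group it was followed by *Il17ra*, and then by *Il17re* and *Il17c*, which overlapped. In the 7KC-IMQ group *Il17c* stood second, above *Il17ra* and *Il17re*, without overlap between these neighbors. Next came *Il17f*, above *Il17b*, whereas *Il17b* stood above *Il17f* in the Cont-IMQ group. *Il17a*, *Il17d* and *Il17rb* followed in the 7KC-IMQ group, where *Il17a* overlapped *Il17d* and *Il17d* overlapped *Il17rb*, and *Il25* was last. Measured against all genes tested, *Il17c* was above 51.3% of genes by mean FPKM in the Cont-IMQ group and above 69.8% in the 7KC-IMQ group, and *Il17f* above 18.7% and 42.7%.

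Genes with the pattern most like that of *Il17f* and *Il17c* were sought among 13109 other genes that averaged at least 1 FPKM. Likeness was the root mean square difference of log2(FPKM + 1), relative to the Cont-IMQ mean, over the 4 libraries. The 5 genes closest to *Il17f* were *Tnc*, *Il23a*, *Lce3a*, *Lcn2* and *Sprr2g*, with differences of 0.048 to 0.151. *Tnc*, which encodes the matrix protein tenascin C, had 5.71 and 4.27 FPKM without 7KC and 15.8 and 19.1 FPKM with 7KC. *Il23a* encodes the p19 subunit of IL-23, the cytokine that maintains type 17 cells, and had 2.15 and 1.82 FPKM against 7.92 and 8.13 FPKM. *Lcn2* encodes lipocalin 2, an antimicrobial protein that binds bacterial siderophores. It had 125 and 110 FPKM against 273 and 372 FPKM. *Lce3a* and *Sprr2g* encode proteins of the cornified envelope. The 5 genes closest to *Il17c* were *Adm2*, *Klk6*, *Eepd1*, *Rnf122* and *Slc29a2*, with differences of 0.048 to 0.128. *Adm2*, which encodes a peptide hormone related to adrenomedullin, had 1.36 and 1.30 FPKM against 3.74 and 3.41 FPKM, and the kallikrein gene *Klk6* had 313 and 307 FPKM against 544 and 644 FPKM. Within a difference of 0.2, there were 9 genes for *Il17f* and 24 for *Il17c*. With 4 libraries, the likeness reflects little more than a similar distance between the groups, and it is given as a description.

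**Figure D4:**
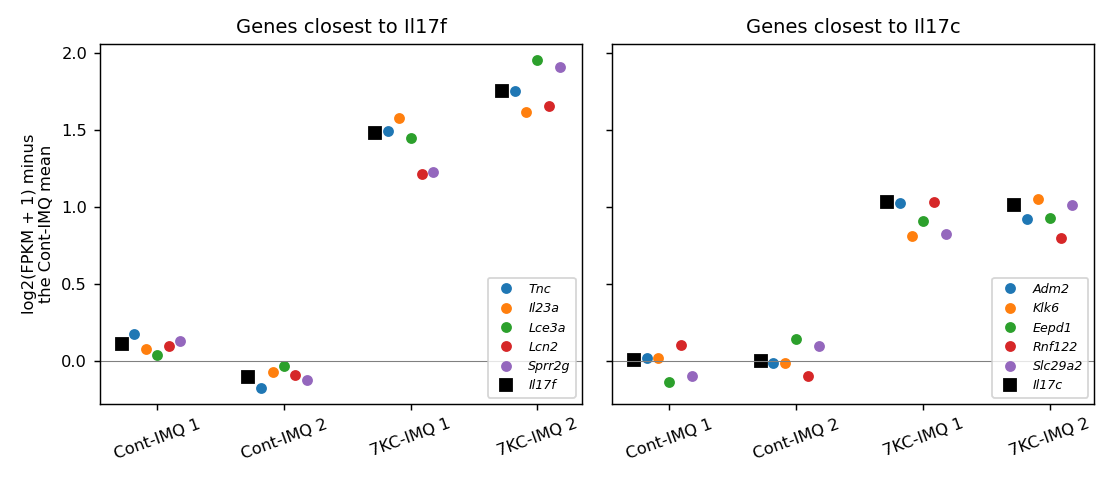
Log2(FPKM + 1) minus the mean of the Cont-IMQ group, by library, for *Il17f* (left) and *Il17c* (right), drawn as black squares, and for the 5 genes closest to each, drawn as colored circles and chosen for their likeness. Points lie near 0 in the Cont-IMQ libraries, and *Il17f* reaches higher than *Il17c* in both 7KC-IMQ libraries.

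The genes upstream of the family and those listed for type 17 lymphocytes did not all point the same way. Of 12 listed inducers of type 17 lymphocytes, 11 were tested, and 7 were higher and 1 lower with an unadjusted limma p-value under 0.05. By the same measure, 7.50% of all genes tested were higher and 5.47% lower. The median log2 fold change of the inducers was 0.76. The 7 were *Il23a*, *Il12b*, *Il1a*, *Il1b*, *Il6*, *Tnf* and *Tlr2*. Several of them had been reported by the study as higher with 7KC in dorsal lesions on Day 1. The direction of this list is therefore not independent evidence. *Il6* is also on the list of epidermal IL-17 targets below and is counted in both. *Il1b*, which acts with IL-23 on gamma delta T cells, had 11.1 and 16.4 FPKM without 7KC and 24.9 and 22.4 FPKM with 7KC. The 1 lower gene was *Il18*, with 76.8 and 53.1 FPKM against 46.9 and 42.6 FPKM, and *Il21* was listed at 0 in every library.

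Of 22 genes of type 17 lymphocytes, 8 were higher and 3 lower with an unadjusted limma p-value under 0.05. The shares over all genes tested were 7.50% and 5.47%. The median log2 fold change of the list was 0.23. The 8 higher genes were *Il1r1*, *Ccr6*, *Il22*, *Stat3*, *Blk*, *Cxcr6*, *Cd163l1* and *Cd44*. Some genes of the list had far more FPKM than *Il17a*, such as *Stat3* (68.5 to 103 FPKM) and *Cd44* (60.5 to 73.5 FPKM). Which cells of the skin these transcripts came from was not tested. Among the lower genes, the transcription factor gene *Rora* had 29.7 and 25.2 FPKM without 7KC and 20.2 and 20.4 FPKM with 7KC, and *Irf4*, which encodes another transcription factor, was lower as well. The chemokine receptor gene *Ccr6*, found on type 17 cells, had 0.447 and 0.195 FPKM against 1.08 and 0.663 FPKM. *Cd163l1*, which encodes the scavenger receptor SCART1 of gamma delta T cells, had 0.897 and 0.584 FPKM against 1.29 and 1.42 FPKM. *Il22*, another type 17 cytokine gene, had 0.148 FPKM and a listed value of 0 without 7KC, and reached 0.554 and 1.202 FPKM with 7KC. Its mean without 7KC, 0.074 FPKM, was under the filter of 0.1 FPKM, so *Il22* was tested only through the 7KC-IMQ group. The study had also reported *Il22* as higher with 7KC. Its place among the 8 is therefore not independent evidence. *Il23r* overlapped, with 0.171 and 0.0861 FPKM against 0.159 and 0.490 FPKM. Reads were not estimated for *Ccr6*, *Il22* and *Il23r*, and at FPKM this low some of the values may rest on few reads.

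Markers of T cells as a whole were split. Of 12 genes of the T cell receptor complex tested, 2 were higher and 2 lower with an unadjusted limma p-value under 0.05. The higher genes were *Lat* and *Thy1*, and the lower genes *Cd3e* and *Cd3g*. Over all genes tested, 7.50% were higher and 5.47% lower. The median log2 fold change of the list was -0.07. That median ranged from -0.29 without Cont-IMQ replicate 2 to 0.06 without Cont-IMQ replicate 1. *Cd3e* had 3.76 and 3.05 FPKM without 7KC and 2.47 and 2.36 FPKM with 7KC, and *Cd3g* had 10.1 and 9.61 FPKM against 7.62 and 5.59 FPKM. The summed level of the list was 81.0 to 92.6 FPKM in the Cont-IMQ group and 103 to 106 FPKM in the 7KC-IMQ group. Most of that sum was *Thy1*, which fibroblasts and other cells also express. Without *Thy1*, a sum chosen after the values were seen, it was 30.04 and 23.9 FPKM against 25.4 and 22.1 FPKM. None of the defining markers measured (*Cd3d*, *Cd3e*, *Cd3g* and *Cd247*) was at 0. The genes of the T cell receptor chains themselves were not analysed here. Among the other cells of the skin, 5 of 6 endothelial markers were lower with an unadjusted limma p-value under 0.05, as were 5.47% of all genes tested. The 5 were *Pecam1*, *Tek*, *Kdr*, *Vwf* and *Emcn*. The endothelial markers had a summed level of 53.1 to 58.6 FPKM in the Cont-IMQ group and 42.4 to 44.3 FPKM in the 7KC-IMQ group. Their part in the differences of the IL-17 family was not tested.

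Of 36 genes of IL-17 receptor signaling, 3 were higher and 1 lower with an unadjusted limma p-value under 0.05, where all genes gave 7.50% and 5.47%, so the shares were near or under those of all genes. The median log2 fold change was 0.07. Without overlap between the groups, 11 were higher and 4 lower, where 23.9% of all genes tested were higher and 22.9% lower in this way. Among the 11 were *Cebpb*, with 111.8 and 116.6 FPKM against 134.3 and 203.7 FPKM, and *Cebpd*, with 58.25 and 82.45 FPKM against 89.93 and 104.4 FPKM. *Traf3ip2*, which encodes the adaptor Act1, had 15.3 and 13.9 FPKM without 7KC and 17.6 and 15.3 FPKM with 7KC, and *Traf6*, which encodes the ligase that Act1 recruits, had 16.4 and 13.9 FPKM against 12.4 and 14.4 FPKM. Both overlapped between the groups, as did *Nfkbiz*, which encodes the IL-17-induced regulator I-kappa-B zeta, with 63.5 and 68.9 FPKM against 67.0 and 81.8 FPKM. The 3 higher genes were *Zc3h12a*, *Nfkb1* and *Srsf1*. *Zc3h12a* encodes Regnase-1, an RNase that restrains IL-17 responses, and had 93.6 and 82.4 FPKM against 126 and 160 FPKM (log2 fold change 0.68, standard error 0.14, limma adjusted p = 0.352). The 1 lower gene was *Il17rd*, a relative of the receptor chains that is no member of the 10 above. It had 1.97 and 2.21 FPKM against 1.54 and 1.34 FPKM, and its log2 fold change was -0.34 (standard error 0.12, limma adjusted p = 0.366).

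Of 34 epidermal target genes of IL-17 tested, 26 were higher and 0 lower with an unadjusted limma p-value under 0.05. The shares over all genes tested were 7.50% and 5.47%. The median log2 fold change of the 34 genes was 0.92. None passed after adjustment, where the smallest value in limma was 0.284. The study displayed several of these genes from the same libraries, so the direction of this list is not independent evidence. The largest differences among genes without overlap were those of *Defb3*, *Il19* and *S100a8*. *Defb3*, a beta-defensin gene, had 24.7 and 8.93 FPKM without 7KC and 62.2 and 93.2 FPKM with 7KC. *Il19*, which encodes a cytokine of the IL-20 subfamily, had 8.71 and 5.49 FPKM against 32.6 and 35.4 FPKM. *S100a8*, which encodes a subunit of calprotectin, had 1267 and 1037 FPKM without 7KC and 3608 and 6775 FPKM with 7KC. *Mmp9*, a matrix metalloproteinase gene, was the only gene of this list that was lower without overlap, with 1.94 and 3.97 FPKM against 1.86 and 1.55 FPKM. Genes of this list, whether higher or lower, can also be expressed by neutrophils or other cells. Which cells the differences came from was not tested. On the type 2 side, where IL-25 acts, 10 of 14 listed genes were tested, and 1, the receptor gene *Il4ra*, was higher with an unadjusted limma p-value under 0.05 (20.6 and 22.3 FPKM against 31.3 and 35.5 FPKM). With 0 lower, this count is near the share of all genes tested, of which 7.50% were higher and 5.47% lower.

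**Figure D5:**
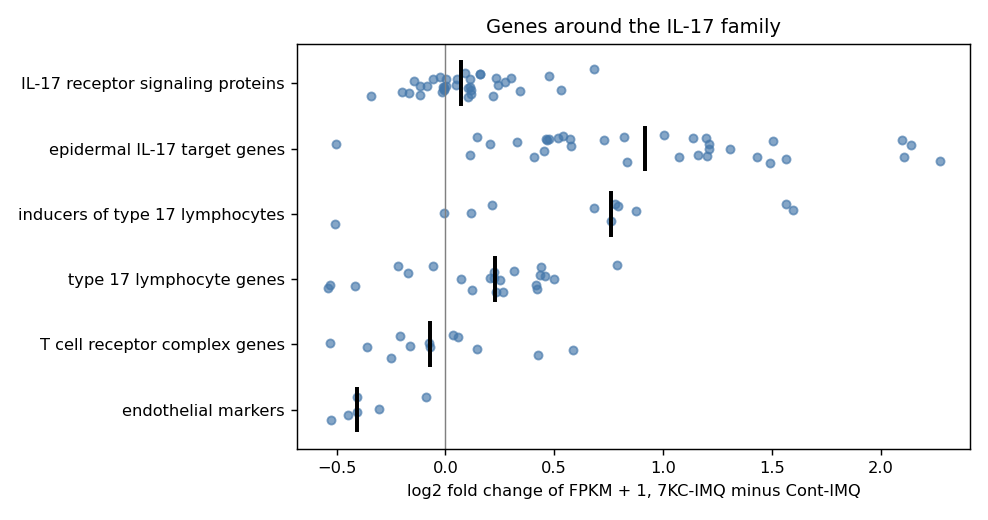
Log2 fold change on the log2(FPKM + 1) scale for each gene tested in 6 lists around the IL-17 family, 7KC-IMQ minus Cont-IMQ, with a black line at each list's median. The epidermal targets and the inducers are centered at 0.92 and 0.76, the signaling proteins near 0 at 0.07, and the endothelial markers at -0.41.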

How the data were processed

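RNA sequence analysis was performed on 4 libraries of dorsal skin, 2 per group, with groups and replicates taken from the sample labels. The authors mapped 75-base single-end reads of stranded mRNA libraries to mm10 and deposited FPKM values, one file per library. The submitters' processing notes name TopHat2 2.1.1, Bowtie2 2.2.8, SAMtools 0.1.18 and Cuffdiff 2.2.1, whereas the paper names Cufflinks and other versions of the mapping tools. The gene annotation and the strand setting are not given in the sources used here.

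No count model was used, because FPKM values are not counts. Values were transformed to log2(FPKM + 1) and compared by lmFit and eBayes with a mean-variance trend (limma 3.58.1, R 4.3.3) over 15896 genes, with Benjamini-Hochberg adjustment, and the fit was tested on simulated data. Depth was estimated from genes with a single GENCODE M21 transcript of at least 500 bases, assuming fragments of 200 ± 80 bases, as the number of reads that brings the most low values within 0.1 of a whole read (73.1% to 75.6%, against 20% by chance). The estimated reads are approximate, and not only for genes with several transcripts. Those of *Il17c* and *Il17d*, with 1 annotated transcript each, lay 0.30 to 0.42 from a whole read before rounding. At most 0.4% of the 75-base windows of a member (*Il17f*) occurred in another gene. Coordinates are those of GENCODE M21 and promoter windows those of RefSeq. The members and lists were chosen with earlier results of these data known. All 10 members are named, together with, per list, up to 3 genes with the largest difference among those without overlap and a mean FPKM of at least 1, and a few regulators fixed with the lists. Genes behind counts of 8 or fewer were named after their values were seen. Of 220 entries on the lists, 214 were in the files, 3 of them under an older symbol (*Il36a*, *Il36b* and *Il36g*), and *Trac*, *Trbc1*, *Trbc2*, *Trdc*, *Ly6g* and *Hbb-bt* were not analysed here. The values of 1 gene of the type 17 list are not reported here.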

Additional observations from a re-analysis of the deposited data

How the results depend on the processing

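Of 106 values of the log2 fold changes of the members under the alternatives (0.1 in place of 1 added to the FPKM, a stricter or no filter, median ratio scaling, quantile normalization, no variance trend, the replicate block and leaving out each library), 103 kept their direction and 0 passed the adjusted threshold. The 3 that turned were *Il17rc* after quantile normalization (-0.0066) and without Cont-IMQ replicate 2 (-0.0555), and *Il17rb* without Cont-IMQ replicate 1 (0.235). With each library left out in turn, *Il17rc* ranged from -0.0555 to 0.221 and *Il17rb* from -0.496 to 0.235. The cause of the turn after quantile normalization was not tested. After that normalization 5 members were higher without overlap between the groups, against 7 with the main settings, and none was lower. With the replicate number as a block, 4 members again had an unadjusted p-value under 0.05 and 0 an adjusted one. With a library left out, 3 were higher in each case, and *Il17rb* was lower (-0.496) without Cont-IMQ replicate 2. In the check of the numbers, the same-numbered libraries deviated from their group means with a correlation of 0.078 over 13110 genes, so the numbers were not taken as pairs. Genes with an adjusted p-value under 0.05 numbered 1, against 2 with a pseudocount of 0.1 and 1 to 9 with a library left out (9 without Cont-IMQ replicate 1 and 5 without Cont-IMQ replicate 2). The median log2 fold change moved by more than the spread between replicates in the signaling list (0.0353 to 0.0557 with a library left out, lowest without 7KC-IMQ replicate 2), the target list (1.21 with a pseudocount of 0.1, 0.707 to 0.976 with a library left out), the inducers (0.594 to 0.723 with a library left out) and the type 17 list (0.346 with a pseudocount of 0.1). Among marker lists, the T cell receptor complex moved to -0.293 without Cont-IMQ replicate 2. Its median was 0.0559 without Cont-IMQ replicate 1, so the sign depended on the library. The type 2 list moved to -0.161 without Cont-IMQ replicate 1 and to -0.149 without 7KC-IMQ replicate 1. The endothelial list moved to -0.353 without 7KC-IMQ replicate 2 and to -0.497 with a pseudocount of 0.1. Medians of keratinocyte, fibroblast, neutrophil and adipocyte markers moved as well. Depth limits *Il25* and *Il17a*, at 1 to 5 reads in the Cont-IMQ libraries.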
